A study of Mus musculus with 3 samples.

Results

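The connexin genes *Gjb1*, *Gjb2*, *Gjb6*, *Gja1*, *Gjc1* and *Gjc3* were followed through single-cell RNA-seq of the mouse cochlea. The 6 genes were taken by symbol, each matched 1 row, and together they are 6 of the 32285 genes in the count tables. Cochlear cells of C57/B6 mice, with no genotype or treatment beyond the strain named, were profiled on the 10x Genomics droplet platform at postnatal day 14 (P14, 1 library) and day 28 (P28, 2 libraries). For each library the dissociated tissue of 7 mice (14 cochleae) of both sexes was pooled, so no value belongs to a single animal, and the epithelium came mainly from the upper basal to the apical turns. Barcodes were kept with 200 to 6000 genes and at most 15% mitochondrial UMIs, a UMI (unique molecular identifier) being 1 captured RNA molecule.

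Gap junctions are plaques of channels that join the cytoplasm of neighboring cells. A connexin spans the membrane, a ring of connexins forms a hemichannel, and hemichannels of adjacent cells dock to make the channel, through which ions, second messengers and small metabolites pass. In the cochlea an epithelial network links the supporting cells around the hair cells, and a connective tissue network links the fibrocytes of the lateral wall and spiral limbus with cells of the stria vascularis. *Gjb2* and *Gjb6* encode the main connexins of both networks, and loss of *GJB2* function is a leading cause of inherited deafness in humans, whereas hair cells are not known to be coupled by gap junctions. *Gja1* is the connexin of bone cells and many other tissues, *Gjc1* is known from vascular and cardiac muscle, and *Gjb1* and *Gjc3* are connexins of myelinating glia.

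*Gjb2* (ENSMUSG00000046352) and *Gjb6* (ENSMUSG00000040055) are neighbors on the minus strand of chromosome 14 in GRCm38 (GENCODE M21), at 57098600 to 57104702 and 57123303 to 57133611. They are 18600 bases apart, with the gene *Gm4491* between them, and a further connexin gene, *Gja3*, lies 40499 bases on the other side of *Gjb2*. The other members are scattered, with *Gja1* (ENSMUSG00000050953) on chromosome 10 at 56377330 to 56402513, *Gjb1* (ENSMUSG00000047797) on chromosome X at 101376378 to 101385629, *Gjc1* (ENSMUSG00000034520) on chromosome 11 at 102799579 to 102819700 and *Gjc3* (ENSMUSG00000056966) on chromosome 5 at 137953461 to 137963098. Because *Gjb2* and *Gjb6* were high in the same cells, the 250 bases before their annotated starts are shown, from RefSeq on GRCm38.p6, at chr14:57104703-57104952 and chr14:57133612-57133861, both read 5′ to 3′ on the minus strand. Capitals mark a GC box (GGGCGG on either strand).
*Gjb2*: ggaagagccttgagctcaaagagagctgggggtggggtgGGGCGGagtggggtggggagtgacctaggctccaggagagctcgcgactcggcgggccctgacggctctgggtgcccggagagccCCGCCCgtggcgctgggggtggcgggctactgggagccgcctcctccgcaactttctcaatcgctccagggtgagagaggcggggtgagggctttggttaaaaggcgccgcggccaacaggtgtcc
*Gjb6*: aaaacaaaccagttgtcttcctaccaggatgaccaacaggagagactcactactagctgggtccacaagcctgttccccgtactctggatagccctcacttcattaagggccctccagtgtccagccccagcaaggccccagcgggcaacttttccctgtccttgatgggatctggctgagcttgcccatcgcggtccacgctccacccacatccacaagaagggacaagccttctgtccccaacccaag
The *Gjb2* sequence held 2 GC boxes and was 69.2% G or C. The *Gjb6* sequence held 0 and was 56.8% G or C, against a median of 52.4% over 32851 promoters of the same length, of which 32.7% hold a GC box. Neither sequence held TATAAA (12.4% of promoters) or CCAAT (33.8%) on either strand, and each held CANNTG (66.2%) once. These are matches of letters, not sites shown to be bound.

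The 3 libraries held 7432047 UMIs in 1662 kept cells at P14, and 24596587 UMIs in 5651 cells and 23300859 UMIs in 7065 cells in P28 replicates 1 and 2. The median was 2037 to 2477 UMIs per kept cell. Cells were clustered without the connexins and named "-like" from marker genes. The names stand for outer and inner hair cells (OHC, IHC), Deiters' and pillar cells (DC/PC), inner phalangeal and border cells (IPhC/IB), inner sulcus, Hensen's and outer sulcus cells (ISC/HeC/OSC), tympanic border cells (TBC), Reissner's membrane (RM), intermediate and marginal cells of the stria (IC, MC), Schwann and satellite glial cells (SC/SGC) and spiral ganglion neurons (SGN). IPhC/IB-, TBC-, SC/SGC- and SGN-like clusters were found only at P28. The P28 cluster named pericyte-like was led by *Fst* and *Abcc9* and went against its name, with 6655 and 6398 CPM of the fibrocyte gene *Coch*, so it is called the *Fst*/*Abcc9* cluster. P28 fibroblast-like cells also carried 1200 and 1206 CPM of *Cldn11*, a gene of basal cells of the stria. The libraries share 10, 20 and 54 barcodes, of which 4, 7 and 10 were kept in both libraries of a pair.

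*Gjb2* was the most captured of the 6 genes in each library, with 6653, 14446 and 12687 UMIs in kept cells, and *Gjb6* followed with 2301, 8045 and 7234. *Gjc1* gave 67, 289 and 324 UMIs, *Gjc3* 15, 88 and 168, *Gja1* 14, 19 and 153 and *Gjb1* 25, 36 and 31. The kit counts each molecule once at its 3′ end, so UMIs of different genes were set side by side without a length correction, although capture may differ between genes. Levels are CPM, the UMIs of a gene in a class and library per 1000000 UMIs of that class and library, with exact Poisson intervals, and these intervals cover counting error only.

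**Figure D1:**
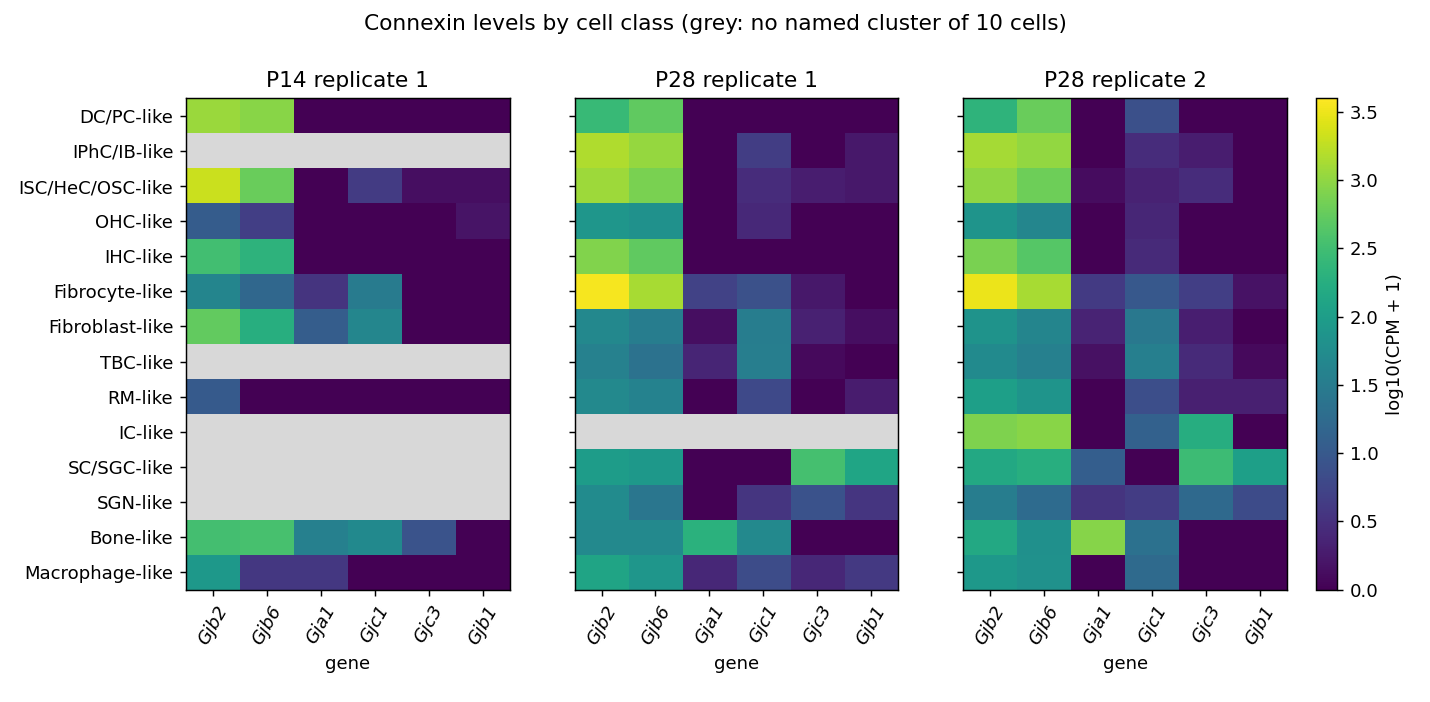
Level of each connexin (columns) in each cell class (rows) in the 3 libraries, as log10(CPM + 1) by color, with grey where a library has no named cluster of 10 cells. *Gjb2* and *Gjb6* are bright in the supporting classes and IHC-like cells of each library and in fibrocyte-like cells at P28 but not at P14. They are also bright in IC-like cells of P28 replicate 2 and in fibroblast- and bone-like cells at P14. *Gja1* is bright in bone-like cells at P28, most in replicate 2, and *Gjb1* and *Gjc3* are bright in SC/SGC-like cells.

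Among the supporting cells the ISC/HeC/OSC-like class, of cells at the edges of the organ of Corti, had the highest *Gjb2* level at P14, 2045 CPM (interval 1992 to 2098), and stood at 1176 and 1013 CPM in P28 replicates 1 and 2. IPhC/IB-like cells, the cells around the inner hair cell, had 1459 and 1285 CPM at P28. DC/PC-like cells, which hold up the outer hair cells and line the tunnel of Corti, stood at 1157 CPM in the P14 library and at 265 and 219 CPM in the P28 libraries. At P28 DC/PC-like cells were thus the lowest of the supporting classes in both libraries, and neither interval (212 to 328 and 152 to 306 CPM) reached that of another supporting class.

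*Gjb6* varied less across the supporting cells. DC/PC-like cells had 925 CPM at P14 and 518 and 593 at P28, IPhC/IB-like cells had 1069 and 1054, and ISC/HeC/OSC-like cells had 607, 739 and 644. The *Gjb6* levels in the supporting classes lay within 518 to 1069 CPM, a narrower range than that of *Gjb2*, 219 to 2045 CPM.

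After thinning each cell to 1000 UMIs, 80.0% of 380 ISC/HeC/OSC-like cells of the P14 library had a *Gjb2* UMI, as did 63.5% of 810 and 58.7% of 906 in the P28 libraries. In DC/PC-like cells it was detected in 71.9% of 57 cells at P14, and in 30.9% of 55 and 10.8% of 37 cells at P28. Without thinning, the DC/PC-like shares were 91.9%, 54.8% and 50.0%. Free RNA in droplets gives UMIs in cells that do not express a gene, and macrophage-like cells, a type not known for *Gjb2* or *Gjb6*, were taken as the reference for it. They had *Gjb2* in 4.76%, 6.83% and 7.58% of thinned cells and 82.8, 125 and 81.1 CPM. Median depths were 2917, 3511 and 3496.5 UMIs in DC/PC-like cells and 3592.5, 2247 and 2048 in macrophage-like cells, and the thinned interval for DC/PC-like cells of P28 replicate 2 (3.03% to 25.4%) took in the macrophage-like share.

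**Figure D2:**
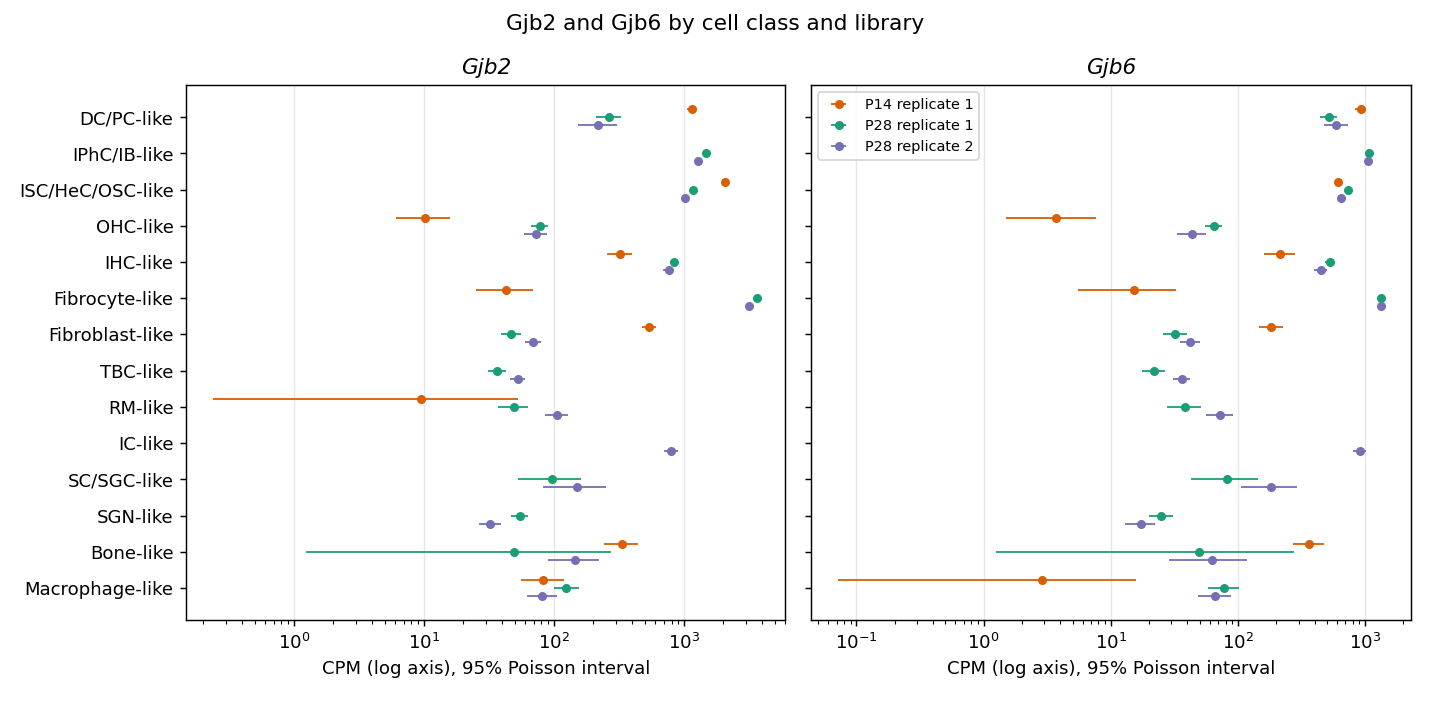
*Gjb2* (left) and *Gjb6* (right) levels in CPM on a log axis for each cell class and library, with 95% Poisson intervals as bars; a level of 0 is not drawn. *Gjb2* in the fibrocyte-like class runs from 42.7 CPM at P14 to 3609 CPM at P28, where the class is made of other clusters. DC/PC-like cells are the supporting class in which the P14 and P28 points lie farthest apart.

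Differences between classes were tested with edgeR's quasi-likelihood test on UMIs summed per class and library, with the library as a block and Benjamini-Hochberg adjustment over all genes. The libraries are pools, so these p-values measure only how the class difference varied between libraries, not between animals. The SE given is the absolute log2 fold change divided by the square root of the F statistic. In DC/PC-like against IPhC/IB-like cells, *Gjb2* was at 265 against 1459 and 219 against 1285 CPM, and *Gjb6* at 518 against 1069 and 593 against 1054. The sides did not overlap for either gene. For *Gjb2* the log2 fold change of DC/PC-like over IPhC/IB-like cells was -2.38 (SE 0.14, edgeR adjusted p = 1.59e-59) and for *Gjb6* it was -0.83 (SE 0.13, edgeR adjusted p = 4.37e-09). Of the 6 connexins 2 could be tested and both were called lower, where 7.83% of all genes tested were. This comparison has only the P28 libraries, so its error rests on the spread shared across genes, and with cells of up to 30% mitochondrial UMIs neither call held.

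In DC/PC-like against ISC/HeC/OSC-like cells *Gjb2* was lower in each library, at 1157 against 2045 CPM at P14, 265 against 1176 in P28 replicate 1 and 219 against 1013 in P28 replicate 2. Across libraries the sides overlapped, since the P14 DC/PC-like level exceeded the ISC/HeC/OSC-like level of P28 replicate 2. The log2 fold change was -1.85 (SE 0.23, edgeR adjusted p = 7.08e-05), and 1 of the 2 connexins tested was called lower, against 9.44% of all genes. *Gjb6* was not called at -0.18 (SE 0.20, edgeR adjusted p = 0.611), with log2 CPM ratios of 0.61 at P14 and -0.51 and -0.12 at P28. Without the P14 library *Gjb6* was called lower in DC/PC-like cells, by -0.50 (edgeR adjusted p = 0.00573), and without the library block *Gjb2* was not called (-1.55, edgeR adjusted p = 0.163).

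IPhC/IB-like and ISC/HeC/OSC-like cells were the closest pair. *Gjb6* was higher in IPhC/IB-like cells, at 1069 against 739 and 1054 against 644 CPM, with a log2 fold change of 0.36 (SE 0.07, edgeR adjusted p = 2.91e-06). *Gjb2* did not pass, at 0.07 (SE 0.07, edgeR adjusted p = 0.430) after TMM scaling and at log2 CPM ratios of 0.31 and 0.34 without it. Of 2 connexins tested 1 was called higher, against 19.7% of all genes. Both results had the other sign at a finer clustering and with up to 30% mitochondrial UMIs, settings that gave the IPhC/IB-like name to 226 and 220 of the 226 cells of 1 P28 cluster low in *Gjb2* (295 and 251 CPM) and in which a P14 class also entered, so no order between these 2 classes is read here and the cause was not tested. The call for *Gjb6* was lost without the library block (0.36, edgeR adjusted p = 0.0592).

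Within the ISC/HeC/OSC-like class the clusters differed as much as the classes did. At P28 the cluster led by *Tdrd12* and *Ucma* had 1725 and 1409 CPM of *Gjb2* and 1145 and 965 of *Gjb6*, and that led by *Mia* and *Prss36* had 1302 and 1114 of *Gjb2* and 616 and 556 of *Gjb6*. The cluster led by *Rubie* and *Frzb* had 587 and 932 CPM of *Gjb2*. The cluster led by *Lockd* and *Pcdh17*, whose cells were the deepest of the class, had 295 and 251 CPM of *Gjb2* and 220 and 139 of *Gjb6*. The order of these 4 clusters was the same in the P28 libraries for *Gjb2*. At P14 the 3 clusters of the class had 2323, 2044 and 1317 CPM of *Gjb2*.

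**Figure D3:**
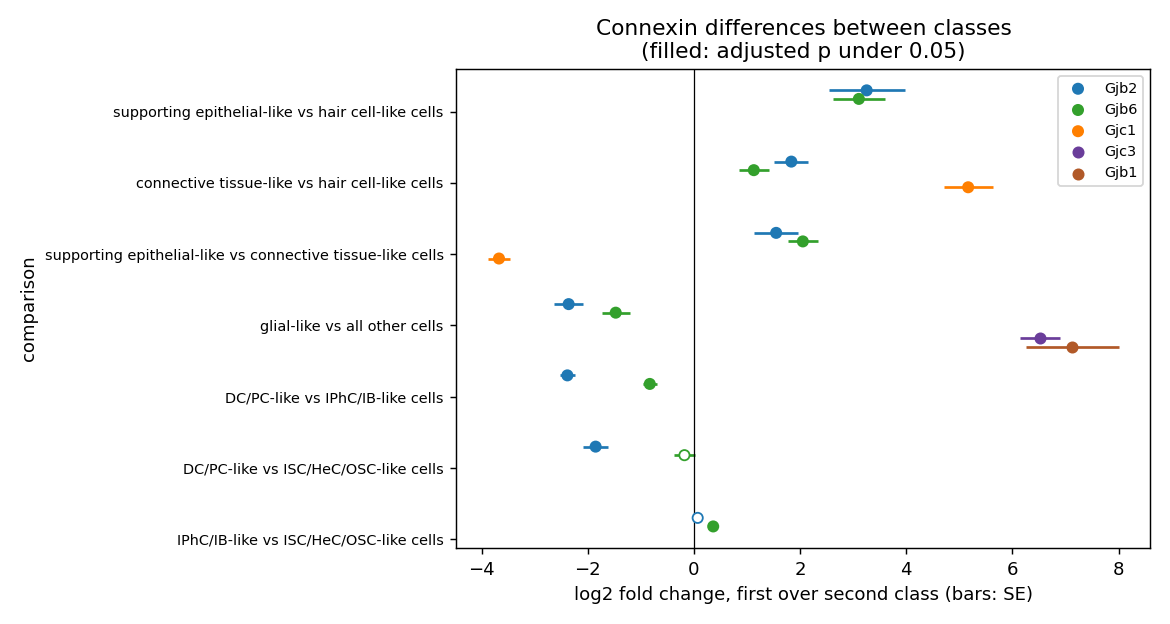
Log2 fold change of each connexin in the 7 comparisons of classes (first over second class, bars the SE, filled points an edgeR adjusted p under 0.05), leaving out estimates with an SE of 2 or more. *Gjb2* and *Gjb6* sit at 3.26 and 3.11 in supporting epithelial-like against hair cell-like cells, and *Gjb1* and *Gjc3* at 7.13 and 6.52 in glial-like cells.

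The connective tissue network gave the highest *Gjb2* level of the data. Fibrocyte-like cells, named from *Coch*, *Otos* and related markers, had 3609 and 3128 CPM of *Gjb2* at P28 (3368 ± 341, SD, n = 2) and 1327 and 1325 CPM of *Gjb6* (1326 ± 1.27). The P14 fibrocyte-like cells had 42.7 CPM of *Gjb2* from 17 UMIs and 15.1 CPM of *Gjb6* from 6 UMIs, below the P14 macrophage-like level of *Gjb2*. The P28 class was not uniform. Its cluster led by *Fxyd2* and *Kcnk2* had 4456 and 3888 CPM of *Gjb2*, that led by *Gm525* and *Otos* had 2622 and 2082, and that led by *Coch* and *Spp1* had 419 and 464. *Gjb6* was at 1540 and 1527 CPM in the first, at 1537 and 1354 in the second and at 326 and 392 in the third.

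The *Gjb2* UMIs were concentrated in a part of these cells. In P28 replicate 1, 110 of 407 fibrocyte-like cells had 10 or more *Gjb2* UMIs and held 91.7% of them, and in replicate 2, 157 of 603 cells held 88.0%. A limit of 10 UMIs depends on depth. The median was 5058 UMIs in the *Fxyd2* and *Kcnk2* cluster and 1282 and 1191.5 in the clusters led by *Coch* and by *Gm525*. In cells thinned to 1000 UMIs, 216 of 337 and 296 of 459 had a *Gjb2* UMI. Under the study's own limits on genes and UMIs, which set aside deep cells, the P28 levels were 1938 and 2148 CPM. The P14 level was 320 CPM, so the difference between the classes became smaller and kept its direction. The P14 and P28 classes are not the same clusters, so this difference is not read as a change of fibrocytes with age. Of the 2 P14 clusters, that of 63 cells was led by *Emilin2* and *Rarres1*, markers of TBC. That of 93 cells was led by *Moxd1*, *Col1a2* and *Abcc9*, with *Coch* further down its 10 leading genes. *Moxd1* and *Abcc9* were also among the leading genes of the *Fst*/*Abcc9* cluster at P28. No P14 cluster was led by *Fxyd2* and *Kcnk2*.

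The rest of the connective tissue was low. Fibroblast-like cells had 46.9 and 68.9 CPM of *Gjb2* and TBC-like cells 36.6 and 52.5 CPM at P28, and the *Fst*/*Abcc9* cluster had 86.9 and 126 CPM, while macrophage-like cells had 125 and 81.1 CPM. The intervals of these levels all reached or lay below the macrophage-like interval of their library. P14 fibroblast-like cells had 541 CPM of *Gjb2*, but 6 of the 159 cells held 75.3% of its 255 UMIs and only 31 cells had any. The stria was seen mainly in P28 replicate 2, where 148 IC-like cells, the pigmented cells of the stria, had 799 CPM of *Gjb2* and 908 of *Gjb6*, and 21 MC-like cells had 272 and 240 CPM.

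Supporting epithelial-like cells (DC/PC, IPhC/IB and ISC/HeC/OSC together) were compared with connective tissue-like cells (fibrocyte-, fibroblast- and TBC-like cells and the *Fst*/*Abcc9* cluster). *Gjb2* was at 1925 against 313 CPM at P14, and at 1194 against 636 and 1051 against 649 at P28. *Gjb6* was at 650 against 106, 804 against 242 and 740 against 286. Each library had the supporting side higher for both genes, by log2 fold changes of 1.55 (SE 0.41, edgeR adjusted p = 0.0234) and 2.05 (SE 0.28, edgeR adjusted p = 0.00198), and for both the sides did not overlap. Of 3 connexins tested, 2 were called higher, against 24.9% of all genes, and 1, *Gjc1*, was called lower, against 25.0%. *Gjc1* passed the filter through its connective tissue-like counts, so the filter favored its call. Against fibrocyte-like cells alone the log2 fold changes, 0.08 for *Gjb2* (edgeR adjusted p = 0.984) and 0.77 for *Gjb6* (edgeR adjusted p = 0.740), average opposite directions, since the supporting side was above fibrocyte-like cells at P14 (1925 against 42.7 and 650 against 15.1 CPM) and below them in both P28 libraries (1194 against 3609 and 1051 against 3128 CPM of *Gjb2*, 804 against 1327 and 740 against 1325 of *Gjb6*). The call for *Gjb2* was also lost without P28 replicate 1 (1.81, edgeR adjusted p = 0.0528).

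*Gjc1* was higher in connective tissue-like than in supporting epithelial-like cells. Connective tissue-like cells had 38.0, 28.4 and 27.3 CPM in P14 and P28 replicates 1 and 2, from 33, 251 and 273 UMIs, and supporting epithelial-like cells had 2.80, 2.14 and 1.56 CPM. The sides did not overlap and the difference was -3.67 on the log2 scale (SE 0.21, edgeR adjusted p = 0.000179). By class, *Gjc1* was at 33.4 and 35.3 CPM in TBC-like cells, 32.5 and 26.7 in fibroblast-like cells, 27.3 and 27.7 in the *Fst*/*Abcc9* cluster and 6.81 and 8.89 in fibrocyte-like cells at P28. At P28 *Gjc1* was thus lowest in the connective tissue class in which *Gjb2* and *Gjb6* were highest. Macrophage-like cells had 0, 5.93 and 16.8 CPM, and only TBC- and fibroblast-like cells of replicate 1 and TBC-like cells of replicate 2 lay above the macrophage-like interval at P28.

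Hair cells were compared next. OHC-like cells had 10.1, 77.5 and 72.7 CPM of *Gjb2*, each below the interval or within that of the macrophage-like cells of the library. IHC-like cells had more, at 321, 838 and 758 CPM of *Gjb2* and 214, 527 and 446 CPM of *Gjb6*. At P28, 39 and 21 IHC-like cells with 10 or more *Gjb2* UMIs held 75.4% and 63.6% of the UMIs of the class. The IHC-like level lay above the macrophage-like interval in each library and below the level of IPhC/IB-like cells in both P28 libraries.

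The markers of IPhC/IB cells moved with these values. Summed over the 6 markers they reached 1038, 2769 and 2619 CPM in the IHC-like class, 397, 530 and 504 CPM in the OHC-like class, 134, 314 and 473 in macrophage-like cells and 4136 and 4139 in IPhC/IB-like cells. Of the 6 markers, *Matn4* alone was at 0 in IHC-like cells of P14 and P28 replicate 1, and none was at 0 in P28 replicate 2. The pattern was not particular to this list, which shares *Sox2* with the DC/PC list and *Gata3* with the ISC/HeC/OSC list. The DC/PC markers summed to 368, 1051 and 1224 CPM in IHC-like and 57.6, 297 and 283 CPM in OHC-like cells. The ISC/HeC/OSC markers summed to 808, 1809 and 1591 CPM against 506, 690 and 641 CPM. IHC-like cells were then divided by whether they had, after thinning, a UMI of *Slc1a3*, *Otog*, *Sox2*, *Fabp7* or *Matn4*, markers picked for this after the levels were seen. At P28, 57.4% of 54 and 48.9% of 45 cells with such a UMI had *Gjb2*, and 37.8% of 45 and 33.3% of 27 cells without one did. At P14 the order was the other way, with 16.7% of 6 cells against 24.0% of 25, and the intervals overlapped in each library. Without the cells of highest doublet score, IHC-like levels of *Gjb2* were 321, 743 and 664 CPM and OHC-like levels were 6.0, 39.2 and 33.4 CPM, and under the study's limits on genes and UMIs, IHC-like levels were 313, 544 and 210 CPM. The part of neighboring supporting cells in the IHC-like values was not tested.

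Supporting epithelial-like cells had 1925, 1194 and 1051 CPM of *Gjb2*, and hair cell-like cells (OHC and IHC together) 47.0, 290 and 278 CPM. *Gjb6* was at 650, 804 and 740 CPM against 28.7, 194 and 164. The sides did not overlap, and the lowest supporting value exceeded the highest hair cell-like value for both genes. The log2 fold changes were 3.26 for *Gjb2* (SE 0.72, edgeR adjusted p = 0.0123) and 3.11 for *Gjb6* (SE 0.49, edgeR adjusted p = 0.00415). Both connexins that passed the filter were called higher, where 31.2% of all genes were higher and 24.5% lower. Against OHC-like cells alone, an alternative chosen after the levels were seen, the log2 fold changes were 5.10 and 4.88.

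Connective tissue-like cells, pooled over their classes, were also above hair cell-like cells. *Gjb2* was at 313, 636 and 649 CPM against 47.0, 290 and 278, with a log2 fold change of 1.84 (SE 0.32, edgeR adjusted p = 0.00554) and no overlap of the sides. *Gjb6* was at 106, 242 and 286 CPM against 28.7, 194 and 164, with a log2 fold change of 1.13 (SE 0.28, edgeR adjusted p = 0.0182), and here the sides overlapped across libraries. *Gjc1* was at 0, 1.16 and 1.51 CPM in hair cell-like cells from 0, 4 and 3 UMIs and was higher in connective tissue by 5.17 (SE 0.46, edgeR adjusted p = 0.00069), at least 26.9-fold at P14 against the limit that 3 counts in that library set. At P28 fibrocyte-like cells held 5300 of 5617 and 5982 of 6485 connective tissue-like *Gjb2* UMIs. Of the *Gjb6* UMIs they held 1948 of 2142 and 2534 of 2860. The other classes of this side lay below hair cell-like cells at P28 for both genes. Fibroblast-like cells, TBC-like cells and the *Fst*/*Abcc9* cluster had P28 means of 57.9, 44.6 and 106 CPM of *Gjb2*. Their *Gjb6* means were 37.2, 29.1 and 55.1 CPM. At P14, 6 fibroblast-like cells held 192 of the 272 *Gjb2* UMIs. All 3 connexins tested were called, against 32.3% of all genes called higher. *Gjc1* passed the filter only through its connective tissue-like counts, so the filter favored its call. The call for *Gjb6* was lost without P28 replicate 2 (1.17, edgeR adjusted p = 0.0672) and at a finer clustering (0.81, edgeR adjusted p = 0.104). Without the library block neither *Gjb6* (0.96, edgeR adjusted p = 0.234) nor *Gjb2* (1.61, edgeR adjusted p = 0.0570) was called. With fibrocyte-like cells alone in place of the pooled side, *Gjc1* was called and *Gjb2* and *Gjb6* were not. At P14 fibrocyte-like cells had 42.7 CPM of *Gjb2* and 15.1 CPM of *Gjb6*. Their intervals (24.9 to 68.4 and 5.54 to 32.8 CPM) took in the hair cell-like levels of that library, so no order is read there. Fibrocyte-like cells lay above hair cell-like cells in both P28 libraries, at 3609 and 3128 CPM of *Gjb2* and 1327 and 1325 CPM of *Gjb6*.

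*Gjb1* and *Gjc3* stood out in glia. SC/SGC-like cells, 69 and 43 at P28, had 131 and 107 CPM of *Gjb1* from 19 and 10 UMIs in 17 and 9 cells, and 344 and 289 CPM of *Gjc3* from 50 and 27 UMIs in 31 and 19 cells. All other cells together had 0.695 and 0.905 CPM of *Gjb1* and 1.55 and 6.08 CPM of *Gjc3*. The sides did not overlap, and the log2 fold changes were 7.13 for *Gjb1* (SE 0.88, edgeR adjusted p = 3.63e-14) and 6.52 for *Gjc3* (SE 0.38, edgeR adjusted p = 6.66e-62). *Gjb2* and *Gjb6* were lower in glial-like cells, at 96.3 and 150 against 590 and 546 CPM and at 82.5 and 182 against 329 and 311 CPM, by -2.36 (SE 0.27, edgeR adjusted p = 6.63e-16) and -1.47 (SE 0.27, edgeR adjusted p = 1.19e-06). Of 6 connexins tested 2 were higher, against 3.83% of all genes, and 2 were lower, against 6.34%. *Gjb1* passed the filter through its glial-like level, so the filter favored its call. *Gjc1* had 0 UMIs in SC/SGC-like cells of both libraries, where 3 counts would be 20.6 and 32.1 CPM, above the 11.8 and 14.0 CPM of the other cells, so a difference was not detectable at this depth. The comparison rests on 2 libraries, and its error on the spread shared across genes.

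*Gjc3* was also present outside the SC/SGC-like cells. IC-like cells of P28 replicate 2 had 176 CPM from 58 UMIs in 45 of 148 cells, with no cell above 3 UMIs. SGN-like cells had 7.01 and 16.0 CPM, and 18 of the 52 UMIs of replicate 2 were in 1 of their clusters. *Gjb1* was not found in IC-like cells (0 UMIs, where 3 counts would be 9.11 CPM) and was at 2.63 and 5.55 CPM in SGN-like cells. The IC-like level of *Gjc3* was thus not accompanied by *Gjb1*, and no second library had enough IC-like cells to repeat it.

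*Gja1* was low in the sensory epithelium. It had 0 UMIs in OHC-, IHC- and DC/PC-like cells of each library and in IPhC/IB-like cells of both P28 libraries, and 0, 0 and 1 UMIs in ISC/HeC/OSC-like cells, where 3 counts would be 1.08, 0.691 and 0.921 CPM. Bone-like cells, named from *Bglap*, *Sp7*, *Ibsp* and other genes of bone formation, had 36.1, 196 and 896 CPM of *Gja1* from 5, 4 and 129 UMIs. The 129 UMIs of P28 replicate 2 came from 31 of 55 cells, at most 11 in a cell. The libraries differed more than counting error, with an interval of 748 to 1065 CPM in replicate 2 and 53.4 to 502 in replicate 1, whose class held 13 cells, and *Bglap* differed in the same order (1872, 4265 and 62942 CPM). The fibrocyte marker *Coch* was at 9325, 7697 and 1313 CPM in this class, the other order. Fibrocyte-like cells had 1, 6 and 6 UMIs of *Gja1*, at most 4.09 CPM.

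The balance between *Gjb2* and *Gjb6* was taken as the share of *Gjb6* in the UMIs of both genes. Over all kept cells it was 25.7% at P14 and 35.8% and 36.3% at P28. DC/PC-like cells had shares of 44.4%, 66.1% and 73.0%, the highest of any class at P28, and IC-like cells had 53.2%. IPhC/IB-like cells had 42.3% and 45.1%, ISC/HeC/OSC-like cells 22.9%, 38.6% and 38.9%, and fibrocyte-like cells 26.1%, 26.9% and 29.8%. IHC-like cells, at 40.0%, 38.6% and 37.0%, lay near the share of all cells at P28, and the macrophage-like shares, 3.33%, 38.2% and 44.8%, spanned it. The intervals of DC/PC-like cells at P28 (59.9% to 72.0% and 64.4% to 80.5%) overlapped only those of SC/SGC-like cells (26.6% to 66.6% of 26 UMIs and 36.0% to 72.7% of 31 UMIs). Fibrocyte-like intervals (25.9% to 27.9% and 28.8% to 30.7%) lay below those of the supporting classes in both libraries. This was not a trait of the whole class. Its cluster led by *Fxyd2* and *Kcnk2* was at 25.7% and 28.2%. The clusters led by *Coch* and *Spp1* (43.8% and 45.8%) and by *Gm525* and *Otos* (37.0% and 39.4%) were higher.

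**Figure D4:**
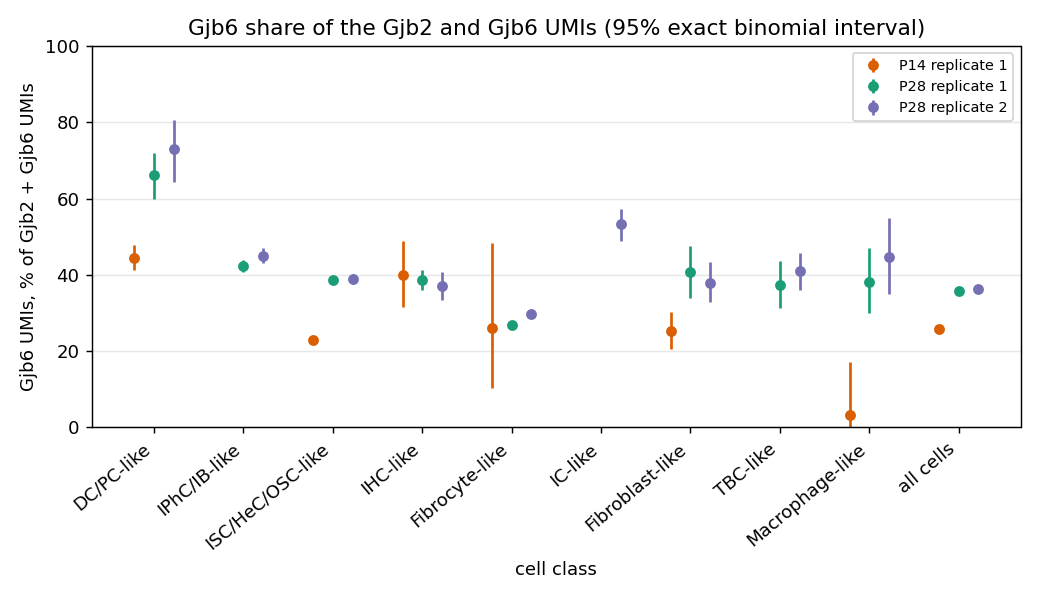
Share of *Gjb6* in the summed *Gjb2* and *Gjb6* UMIs (in percent) for 9 cell classes and for all kept cells in the 3 libraries, with 95% exact binomial intervals. DC/PC-like cells lie highest at 66.1% and 73.0% at P28, and fibrocyte-like cells lowest there at 26.9% and 29.8%. The clusters of the fibrocyte-like class differ in this share and are not drawn.

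Detection of both genes in the same cells was described in cells thinned to 1000 UMIs. In ISC/HeC/OSC-like cells, *Gjb6* was found in 45.7%, 55.8% and 52.3% of cells with *Gjb2* and in 7.89%, 33.8% and 27.3% of cells without it. In fibrocyte-like cells at P28 it was found in 65.7% and 70.3% of cells with *Gjb2* and in 24.0% and 27.6% of cells without it. In IPhC/IB-like cells the shares were 67.0% and 64.1% against 55.7% and 57.8%. In DC/PC-like cells they were 73.2% of 41 against 37.5% of 16 cells at P14 and 35.3% of 17 against 34.2% of 38 in P28 replicate 1, where the intervals (14.2% to 61.7% and 19.6% to 51.4%) overlapped. Thinned to 2000 UMIs, the P28 DC/PC-like shares had the other order. They were 22.2% of 18 against 59.3% of 27 cells in replicate 1 and 61.5% of 13 against 76.5% of 17 in replicate 2. The intervals overlapped in both. The clusters of a class differ in both genes, so these shares include differences between clusters. Macrophage-like cells, the reference for free RNA, also had *Gjb6* more often with *Gjb2* at 1000 UMIs. The differences were 22.3 and 14.3 percentage points in P28 replicates 1 and 2, with overlapping intervals. OHC-like cells had 36.8 and 3.44 points, and ISC/HeC/OSC-like cells 22.1 and 25.0. A higher share with *Gjb2* was thus not particular to the supporting and fibrocyte-like classes. The part of free RNA was not tested. In the classes with at least 10 cells with and 10 without *Gjb2*, of which bone-like cells were not one, *Gja1* was found in at most 1 cell with *Gjb2* of a class and library.

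Between P14 and P28 no test was made, since the 1 library at P14 has no replicate, and levels are given side by side. A P14 level was counted as outside P28 where its interval overlapped neither P28 interval, which held for 14 of the 20 *Gjb2* and *Gjb6* levels in the 10 classes seen at both ages. Over all genes in the same classes it held for 13.6% of levels with at least 10 UMIs in the 3 libraries together and for 25.6% of those with at least 100, where it held for 13 of 17 levels of *Gjb2* and *Gjb6*. *Gjb2* was above P28 in DC/PC-like cells, at 1157 against 265 and 219 CPM (4.77 times the P28 mean), and in ISC/HeC/OSC-like cells, at 2045 against 1176 and 1013 CPM (1.87 times). *Gjb6* was above P28 in DC/PC-like cells, at 925 against 518 and 593 CPM (1.66 times), and in ISC/HeC/OSC-like cells its P14 interval overlapped P28, at 607 against 739 and 644 CPM. In IHC-like cells *Gjb2* was below P28 (0.402 times) and *Gjb6* also (0.440 times). The summed IPhC/IB markers of these cells, 1038 against 2769 and 2619 CPM, and their median depth, 1025.5 against 9310 and 8007.5 UMIs, moved the same way, their part was not tested, and under the study's limits *Gjb2* at P14, 313 CPM, lay between the P28 levels of 544 and 210 CPM. Both genes were also below P28 in OHC-, fibrocyte- and RBC-like (red blood cell-like) cells and above it in fibroblast-like cells, and *Gjb6* was below it in macrophage-like cells. Macrophage- and RBC-like cells should lack these genes, and in macrophage-like cells *Gjb6* was at 2.86, 77.1 and 65.7 CPM. The part of free RNA in the other low levels was not tested. The fibrocyte-, RBC- and bone-like classes are not made of like clusters at the ages. The fibroblast-like clusters of the ages shared *Dcn* and *Ccl11* among their leading genes but differed in others. The P28 ISC/HeC/OSC-like class includes the deep cluster led by *Lockd* and *Pcdh17*, with a P28 mean of 273 CPM of *Gjb2*. The *Gjb2* level of this class thus depends on the clusters it takes in. Age and library cannot be told apart here, and under the study's limits 7 of these levels were outside P28, with no DC/PC-like class at P14, where 55 of its 74 cells were kept and fell in an unnamed cluster.

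Of the other gap junction genes, 14 further connexins and 3 pannexins were looked up. In supporting epithelial-like against connective tissue-like cells *Panx1* was lower (log2 fold change -2.70, SE 0.43, edgeR adjusted p = 0.0036), although it was low, at 7.18 and 6.93 CPM in fibroblast-like cells at P28. Of 2 pannexins tested there 1 was called lower, against 25.0% of all genes. A gene this low can pass the filter through its higher side alone, which would favor its call. SGN-like cells held most UMIs of *Panx1*, *Panx2* and *Gjd2* at P28, of which *Panx2* and *Gjd2* are named after their values were seen. *Panx2*, a large-pore channel of neurons, was at 305 and 296 CPM there, *Panx1* at 56.4 and 50.6 CPM and *Gjd2*, the main connexin of electrical synapses between neurons, at 80.3 and 74.0 CPM. *Gjd2* was found in 128 of 335 and 149 of 297 SGN-like cells.

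Partners and regulators of connexins, a list of 11 genes, moved in both directions. In supporting epithelial-like against hair cell-like cells 10 were tested, with a median log2 fold change of 0.37 against 0.09 over all genes tested. Of these, 3 were higher and 2 lower, against 31.2% and 24.5% of all genes. *Cdh1*, the cadherin of epithelial adherens junctions, was higher (2.45, SE 0.41, edgeR adjusted p = 0.00497), as were *Csnk1d*, a casein kinase, and *Nedd4*, a ubiquitin ligase, both by 0.48. The scaffold gene *Tjp1*, whose product binds connexins at the membrane, had a log2 fold change of -0.91 (SE 0.18, edgeR adjusted p = 0.00901). In supporting epithelial-like against connective tissue-like cells 11 were tested. Of these, 2 were higher, *Csnk1d* among them, and 7 lower, against 24.9% and 25.0% of all genes. The median was -0.88 against -0.02 over all genes, and the caveolin *Cav1* was the lowest at -4.70 (SE 0.71, edgeR adjusted p = 0.00286). In connective tissue-like against hair cell-like cells 8 of 11 were higher and 1 was lower, against 32.3% and 24.7% of all genes. Within the supporting cells, *Cdh2*, the cadherin of neurons and other cells, was at 69.8 and 71.8 CPM in IPhC/IB-like cells at P28. In DC/PC-like cells it was at 0 and 6.45 CPM (log2 fold change -4.84, SE 0.78, edgeR adjusted p = 2.14e-08). It was the 1 partner of 9 tested that was called there, against 7.83% of all genes called lower. *Cdh2* passed the filter through its IPhC/IB-like counts, so the filter favored its call, which rests on 2 libraries. Against ISC/HeC/OSC-like cells, 2 of 9 partners were higher in DC/PC-like cells, *Cav1* among them, against 8.89% of all genes, and 5 of 10 were higher and 1 lower in IPhC/IB-like cells, against 19.7% and 21.0%. In glial-like cells *Cdh1* was higher and *Cav1* lower of the 11, against 3.83% and 6.34%.

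The genes most like each connexin were ranked by Pearson's r of log2(CPM + 10) over 44 sums of classes and libraries, among 13961 genes with at least 100 UMIs. The sums share libraries and depth, so r is a description. Some of the genes below, *Bglap* and *Cldn19* among them, are markers from which the classes were named, which favors a high r. The r of *Gja1* rests mainly on the bone-like sum of P28 replicate 2 (129 UMIs). That of *Gjb1* rests mainly on the SC/SGC-like sums (19 and 10 UMIs in P28 replicates 1 and 2). For *Gjb2* the closest gene was *Gjb6* (r = 0.944), followed by *Cryl1* (0.827), which lies 141381 bases past *Gjb6* on chromosome 14, and *Nudt4* (0.796). For *Gjb6* it was *Gjb2*, followed by *Nudt4* (0.790) and *Mcc* (0.773). *Gja1* followed *Col1a1* (0.964) and *Bglap* (0.944), and *Gjc1* followed *Mfap2* (0.916), *Igf2* (0.908) and *Tpm2* (0.898). *Gjc3* followed *Cmtm5* (0.864) and *Fa2h* (0.849), and *Gjb1*, which had fewer than 100 UMIs itself, followed *Cldn19* (0.983), *Gpr37l1* (0.982) and *Fa2h* (0.970). Between the members, *Gjb1* and *Gjc3* had an r of 0.837, and *Gjb2* and *Gjc1* an r of -0.135.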

How the data were processed

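Single-cell RNA was measured with the Chromium Single Cell 3′ v3.1 kit in 3 libraries, P14 replicate 1 and P28 replicates 1 and 2, each from 7 pooled mice. The deposited values are counts of UMIs per gene and barcode, which the authors made with Cell Ranger (6.0.1 per the labels, 5.0.1 per the file headers) on mm10. The files hold 2513, 11948 and 18196 barcodes, each with at least 500 UMIs, and 66.1%, 47.3% and 38.8% passed the limits of 200 to 6000 genes and at most 15% mitochondrial UMIs.

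Kept cells were clustered in Seurat 5.3.0 (P14 alone, P28 libraries integrated by anchors, 2000 variable genes without the connexin and partner lists, 30 principal components, resolution 1). A cluster was named from at least 3 markers with a log2 ratio of at least 1 in at least 5% of its cells, giving 17 of 18 clusters at P14 and 33 of 34 at P28. The rule for ties was changed after the first names were seen, and the rule that left clusters high in *Mog* and *Mobp* unnamed was added after connexin levels by cluster were seen, so differences from the study may come from rebuilt names. Doublets were not removed. Scrublet (scanpy 1.11.5) called 0.120%, 0% and 2.82% of kept cells and so had not worked in every library, and leaving out 33, 540 and 1028 cells of highest score was an alternative.

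UMIs were summed per class and library and tested with edgeR 4.0.16 (R 4.3.3, quasi-likelihood, TMM, library as a block, Benjamini-Hochberg adjustment, threshold 0.05). The block pairs classes of the same dissociated tissue. The test was tried on simulated data, in which it found 193 of 200 genes changed by a fold of 4 for DC/PC-like against ISC/HeC/OSC-like cells, and the fewest, 105 of 200, for the glial comparison. Poisson and binomial intervals are exact, at 95%, and cover counting error only. Where a count is 0, the limit given is 3 counts. Alternatives were DESeq2 1.42.0 and its size factors, other filters, no block, each library left out, the study's limits (at most 3000 genes and 15000 UMIs), up to 30% mitochondrial UMIs, resolution 2, thinning and narrower classes. The genes named were the 6 members, other connexins, pannexins and partners called in supporting epithelial-like against hair cell-like or connective tissue-like cells, and the 3 genes most like each member, some of which are not reported here. The members and lists were chosen with earlier results of these data known. Positions are from GENCODE M21, in which 32158 of the 32285 identifiers were found, and promoters from a RefSeq table, which matched 5 of the 6 members.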

Additional observations from a re-analysis of the deposited data

Results flagged for a closer look

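*Gjb6* in DC/PC-like against ISC/HeC/OSC-like cells stood at a log2 CPM ratio of 0.607 at P14 and of -0.513 and -0.119 in P28 replicates 1 and 2. It drew attention because the P14 library lay on the other side of 0 from both P28 libraries, and the difference between the ages was not tested, with 1 library at P14.

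The other results here lie outside the named classes and were picked after their values were seen. A P14 cluster of 30 cells that was left without a name, led by *Mbp*, had 260 CPM of *Gjb1* and 147 CPM of *Gjc3*. The *Gjb1* level came from 23 UMIs in 2 cells, 21 of them in 1 cell, whereas the 13 UMIs of *Gjc3* came from 9 cells. It also had 4811 CPM of *Mobp* and 1087 CPM of *Mog*, genes of myelin made by oligodendrocytes. An unnamed P28 cluster led by *Ceacam16*, a gene of the tectorial membrane, had 535 and 531 CPM of *Gjb2* in replicates 1 and 2, and 372 and 339 CPM of *Gjb6*. In the barcodes outside the limits *Gjc3* was at 15.6 and 19.5 CPM in P28 replicates 1 and 2, against 3.58 and 7.21 CPM in kept cells.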

How the results depend on the processing

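Of the fold changes of single connexins recomputed under an alternative, 216 kept their direction and side of the threshold, 14 lost and 2 gained a call, and 8 changed sign. *Gjb2* and *Gjb6* in supporting epithelial-like against hair cell-like cells kept their calls under all 15 alternatives, and *Gjb1*, *Gjc3* and *Gjb2* in glia under all 12. *Gjc1* kept its call in the connective tissue comparisons under the 16 of 17 and 14 of 15 alternatives that could test it. It did not pass the filter of 10 UMIs in every sum, the alternative that needs counts on both sides. Without the replicate block, 1 connexin was called in connective tissue-like against hair cell-like cells (*Gjb2* 1.61, edgeR adjusted p = 0.0570, and *Gjb6* 0.96, edgeR adjusted p = 0.234, were not) and 0 in DC/PC-like and in IPhC/IB-like against ISC/HeC/OSC-like cells (*Gjb2* -1.55, edgeR adjusted p = 0.163, and *Gjb6* 0.36, edgeR adjusted p = 0.0592). With fibrocyte-like cells alone 1 connexin, *Gjc1*, was called in each connective tissue comparison, and *Gjb2* and *Gjb6* were not. With up to 30% mitochondrial UMIs 0 were called in DC/PC-like against IPhC/IB-like cells, and *Gjb6* turned to 0.74. In DC/PC-like against ISC/HeC/OSC-like cells 2 were called under the study's limits, 1 to 2 with each library left out, and *Gjb6* ranged from -0.50 to 0.041, its sign turning without P28 replicate 1. In IPhC/IB-like against ISC/HeC/OSC-like cells 2 were called under the study's limits, and *Gjb2* turned to -0.19 there, to -1.32 with up to 30% mitochondrial UMIs, to -1.29 at resolution 2 and to -0.070 after thinning, and *Gjb6* to -1.14 with up to 30% mitochondrial UMIs and to -1.13 at resolution 2. *Gjb6* in connective tissue-like against hair cell-like cells was not called at resolution 2 (0.81, edgeR adjusted p = 0.104). *Gjb2* in supporting epithelial-like against connective tissue-like cells was not called with up to 30% mitochondrial UMIs (1.16, edgeR adjusted p = 0.0869). *Gjb6* in glia was not called with the *Mobp* and *Mog* cluster added (-2.17, edgeR adjusted p = 0.0748), an alternative chosen after seeing the data. The P14 levels outside P28 numbered 7 under the study's limits and 6 after thinning, and thinning to 2000 UMIs moved the co-detection difference in ISC/HeC/OSC-like cells to 59.6, 45.7 and 36.0 percentage points. In DC/PC-like cells at that depth the difference was -37.0 and -14.9 points in P28 replicates 1 and 2. The cause was not tested. With each library left out, *Gjb2* and *Gjb6* ranged from 2.17 to 3.92 and 2.29 to 3.54 in supporting epithelial-like against hair cell-like cells. At resolution 2 all 73 and 42 P28 DC/PC-like cells fell under the OHC-like name, so that OHC-like cells had 98.7 and 87.4 CPM of *Gjb2* there, and at P14 no DC/PC-like class was named under the study's limits. A library could not be left out where only 2 were compared. Depth limited *Gjb1*, *Gja1* and *Gjc3*, with at most 168 UMIs in any library.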
